A study of Mus musculus with 12 samples.

Results

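Arginine is taken up by cationic amino acid transporters and is split inside macrophages by arginase, which gives urea and ornithine, or by nitric oxide synthase, which gives nitric oxide and citrulline. Citrulline can be turned back into arginine, and ornithine is the start of the polyamines putrescine, spermidine and spermine, small charged molecules that bind nucleic acids and that are needed for the hypusine modification of the translation factor eIF5A. In mouse macrophages, high arginase is a standard sign of alternative activation by interleukin-4 (IL-4), and high inducible nitric oxide synthase is a sign of classical activation.

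A set of 10 genes of this chemistry was chosen by name. No measured value was in the rule, but earlier results of these data were known. All 10 genes were found among the 56941 genes of the count tables. They are the transporter Slc7a2, the arginine-recycling enzyme Ass1, the enzymes Arg1, Arg2 and Nos2 that consume arginine, the polyamine synthesis enzymes Odc1, Srm and Sms, and the regulators Azin1 and Sat1. RNA was sequenced from bone-marrow-derived macrophages of C57Bl/6J mice in 4 groups of 3 libraries, from WT or miR-210 KO mice and in the M0 or the M2 state. Monocytes were enriched from marrow by removal of other cells, grown for 7 days in 20% serum with 30% conditioned medium of L929 cells (mouse fibroblasts that supply M-CSF), and then held for 72 hours with 20 ng/mL IL-4 (M2) or without it (M0). The deletion goes back to a cross of a floxed miR-210 allele with a Gata-1 Cre line, and both WT and KO animals were offspring of heterozygous parents. Ages and sexes of the animals are not given in the sources used here, nor is it stated which cultures came from separate animals, so the p-values measure the spread between these libraries.

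The libraries held between 7930525 and 10167695 counts. Batch labels coincide with the groups, so that a batch and a group effect cannot be told apart, and column numbers from 1 to 3 name the libraries within a group without being tied to samples. The targeted gene, Mir210, had 1, 3 and 5 counts in WT M0, 1, 2 and 1 in WT M2, and 0 in all 6 miR-210 KO libraries, which matches the labels although the precursor is barely counted in any library. The 6 macrophage markers Adgre1, Cd68, Csf1r, Itgam, Mertk and Fcgr1 were all counted in every group and summed to between 3280 and 4047 CPM (counts scaled to the library total), while the lists for neutrophils, lymphocytes, erythroid cells, fibroblasts, and mast cells and basophils stayed at or below 4.59 CPM in every library, with Ly6g, Cd3e and Ms4a1 at 0 throughout. Within the macrophage list, Fcgr1 had 3043 to 5138 counts in M0 libraries and 318 to 641 in M2 libraries. Mertk had 1480 to 2105 and 598 to 893, and the other markers of that list overlapped between the states. The list of 5 dendritic cell markers rose with IL-4, from 0.532 to 1.46 CPM in M0 to 11.1 to 18.8 in M2. Most of those counts were Zbtb46 (88 to 143 counts in M2 libraries), and Flt3 was at 0 in all 6 M2 libraries. Between genotypes, Hbb-bs had 17, 7 and 0 counts in WT M0, 0, 25 and 1 in WT M2, and 0 in all 6 KO libraries. Hba-a1 and S100a9 were also at 0 in all 6 KO libraries, with at most 10 and 8 counts in a WT library. S100a8 was counted in every library. The part of these marker differences in the results was not tested.

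The microRNA missing from the KO cells pairs with its targets through bases 2 to 8. Its mature sequence from RefSeq is shown with that seed in capitals, together with the single place where the 3′ untranslated region of a gene of the 10 holds the 6 letters that pair with bases 2 to 7, marked in capitals.
mmu-miR-210-3p: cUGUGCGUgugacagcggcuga
Azin1 site: ccccttccttCGCACAgacatttata
The 7-letter match ACGCACA was in 0 of the 10 canonical 3′ untranslated regions, against 3.48% of the 20718 searched in the GRCm39 annotation. The 6-letter match CGCACA was in 1 of 10, that of Azin1, where it starts at position 1051 of 3066 bases, against 9.25% of all. These letters are a description and not evidence of a functional site.

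Ass1 and Odc1 carry the first steps after citrulline and ornithine, and moved differently with IL-4. Their RefSeq promoters, from 250 bases before to 50 bases after the annotated start, each match the GRCm39 assembly at a single place, chr2:31360032-31360331 on the plus strand for Ass1 and chr12:17594624-17594923 on the plus strand for Odc1. The CACGTG letters of an E-box are in capitals.
Ass1 promoter: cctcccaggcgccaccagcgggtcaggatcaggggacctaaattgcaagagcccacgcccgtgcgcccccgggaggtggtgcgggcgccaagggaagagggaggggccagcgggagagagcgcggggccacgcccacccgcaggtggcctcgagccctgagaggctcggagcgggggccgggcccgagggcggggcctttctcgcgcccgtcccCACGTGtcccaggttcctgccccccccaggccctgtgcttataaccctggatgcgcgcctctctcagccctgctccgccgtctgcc
Odc1 promoter: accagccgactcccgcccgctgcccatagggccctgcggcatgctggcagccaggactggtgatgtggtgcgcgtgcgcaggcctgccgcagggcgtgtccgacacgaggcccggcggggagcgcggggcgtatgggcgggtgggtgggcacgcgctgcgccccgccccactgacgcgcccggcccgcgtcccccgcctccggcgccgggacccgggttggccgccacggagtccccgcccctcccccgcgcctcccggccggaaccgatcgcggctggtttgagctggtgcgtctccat
The patterns searched on both strands of the promoters were TTC and GAA with 4 letters between them (the spacing that STAT6 binds), TTCNNNGAA, CACGTG, TGATGNAA and TATAAA. They occur in 6.95%, 8.3%, 7.15%, 3.97% and 13.6% of the 32851 mouse promoters of the same length. Ass1 held only CACGTG and Odc1 held none. Sms has 2 annotated starts, of which only the upstream promoter held a match, CACGTG, and the Sat1 promoter held none. The promoter set searched here had no entry for Arg1, Arg2, Nos2, Slc7a2, Srm and Azin1.

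With IL-4, the transporter Slc7a2, the recycling enzyme Ass1 and both arginases rose in both genotypes. In WT cells, Slc7a2 rose 153-fold, Arg1 46.3-fold, Ass1 6.63-fold and Arg2 2.82-fold, the polyamine genes Azin1, Srm and Sms rose 1.3-fold to 1.68-fold, and Odc1 and Sat1 did not pass the test. In all, 7 of the 10 genes were called, all higher, where 35.4% of the 14266 genes tested were called in either direction and 18.4% were called higher. Here a called gene has an adjusted p under 0.05 by edgeR's quasi-likelihood test and a change of over 1.2-fold, and for M2 against M0 it also codes for protein and averages over 10 normalized counts. The median log2 fold change was 0.75 over the 9 tested genes, and the median over all genes tested lay at 0 to 2 decimals. In bulk RNA, more cells that express a gene and more RNA in each cell cannot be told apart.

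In miR-210 KO cells, 7 of the 10 were also called, 6 higher and 1 lower, where 28.4% of 14331 genes were called, 14.3% higher and 14.0% lower. Slc7a2 rose 168-fold, Arg1 26.2-fold, Ass1 3.62-fold and Arg2 2.42-fold, and Sat1 and Sms rose 1.28-fold and 1.21-fold. Odc1 was called lower, a call that was lost without the KO M0 library numbered 3 or the KO M2 library numbered 1 or 2, as described below. Srm and Azin1, called in WT, were not called in KO. The count was 4 without the miR-210 KO M2 library numbered 2, and 6 without the miR-210 KO M0 library numbered 3.

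Between genotypes the differences were small. In M0 only Arg1 was called, 1.8-fold higher in miR-210 KO, where 0.461% of 14089 genes were called. In M2 only Slc7a2 was called, 1.24-fold lower in miR-210 KO, where 0.980% of 13980 genes were called. The test of the interaction, whether the response to IL-4 differed between genotypes, called 0 of the 14825 genes with edgeR, and 1327 genes (8.95%) had an unadjusted p under 0.05. The DESeq2 Wald test called 92 genes, Arg1 and Azin1 among them.

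**Figure D1:**
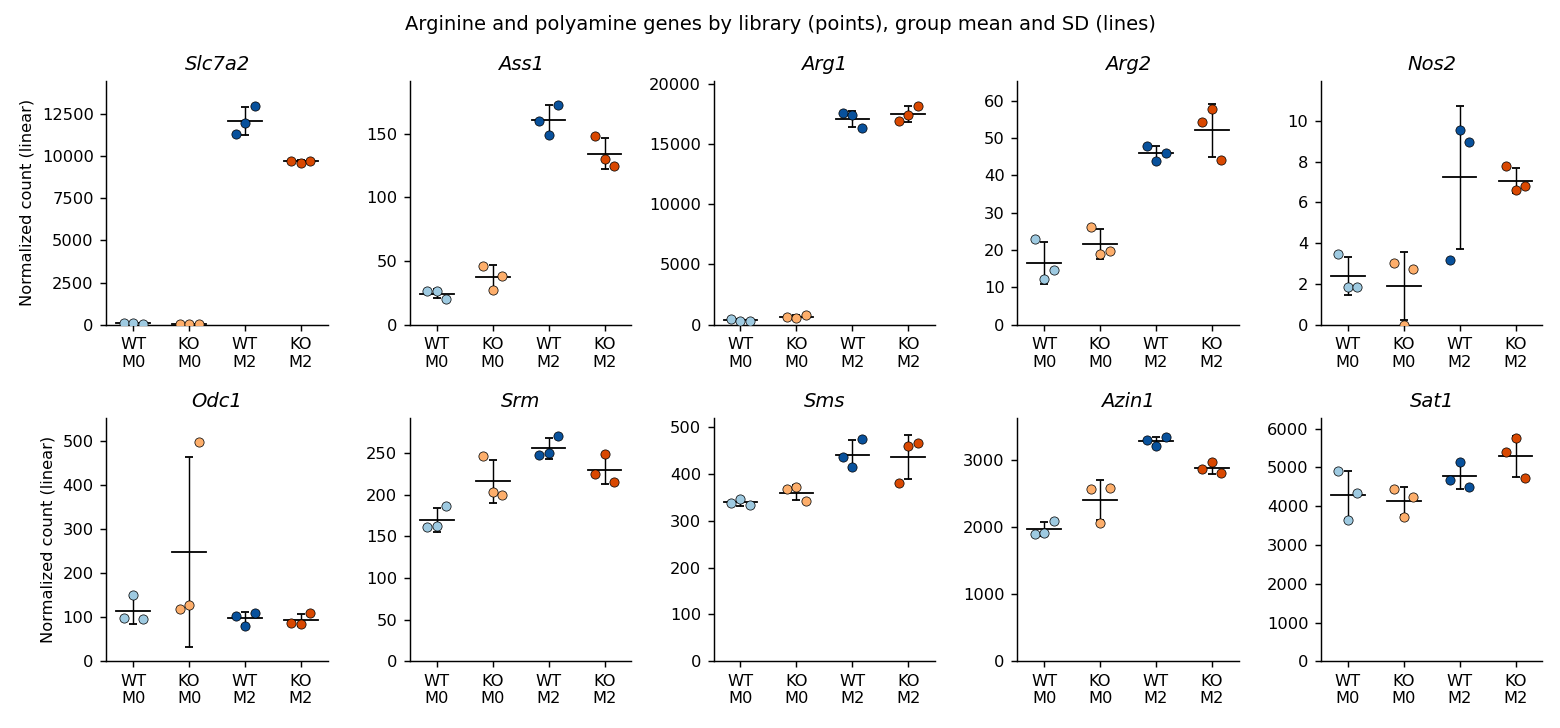
Normalized counts (TMM scale, linear axes from 0) of each of the 10 genes in each of the 12 libraries, with points for libraries and lines for the group mean and SD (n = 3). Slc7a2 and Arg1 go from at most 91.7 and 769 in M0 to at least 9604 and 16292 in M2, while Odc1 is high in a single miR-210 KO M0 library, at 498.

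Slc7a2 encodes CAT2, the inducible cationic amino acid transporter, and lies at chr8:41315431-41375345 on the plus strand of GRCm39. Its normalized counts were 74.9, 91.7 and 69.9 in WT M0 and 62.5, 50.9 and 59.5 in miR-210 KO M0. With IL-4 they were 11284, 11936 and 12973 in WT and 9713, 9604 and 9697 in KO. The M0 and M2 groups were more than 100-fold apart, and within each state every KO library lay below every WT library. The log2 fold change of M2 against M0 was 7.26 (SE 0.11, edgeR adjusted p = 5.1e-14) in WT and 7.39 (SE 0.10, adjusted p = 4.1e-13) in KO, which rank 55 of 14266 and 45 of 14331 among the increases. Between genotypes, KO against WT was −0.31 (SE 0.05, edgeR adjusted p = 0.0078) in M2 and −0.46 (SE 0.18, adjusted p = 0.42) in M0. The interaction was 0.14 (SE 0.15, edgeR adjusted p = 0.83), and a difference between the states in the size of the KO effect was not detected. The M2 call was lost without the WT M2 library numbered 3 (log2 fold change −0.26, under the limit of 0.263), without the KO M2 library numbered 1 (adjusted p = 0.051) or 2 (0.077), and when all 12 libraries were fitted together (0.089).

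Ass1, argininosuccinate synthase, makes the precursor of arginine from citrulline. It had 26.5, 26.2 and 20.2 normalized counts in WT M0, 46.4, 27.6 and 37.9 in KO M0, 160, 149 and 173 in WT M2, and 148, 130 and 125 in KO M2. All KO libraries lay above all WT libraries in M0 and below all of them in M2. IL-4 raised it by a log2 fold change of 2.73 (SE 0.16, edgeR adjusted p = 1.3e-08) in WT and 1.85 (SE 0.19, adjusted p = 6.8e-06) in KO. The difference between these responses was −0.87 (SE 0.26, edgeR adjusted p = 0.27), and neither genotype comparison passed the test, with log2 fold changes of 0.61 (SE 0.26, adjusted p = 0.46) in M0 and −0.25 (SE 0.11, adjusted p = 0.43) in M2. Ass1 shares 53.2% of the 50-base stretches of its canonical transcript with the pseudogene Gm5424, which had 0 to 4 counts in each library. How reads that match both were counted was not tested.

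Arg1, the cytosolic arginase, lies at chr10:24791118-24803817 on the minus strand. Its normalized counts were 460, 344 and 313 in WT M0 and 662, 571 and 769 in KO M0. In M2 they were 17568, 17370 and 16292 in WT and 16898, 17375 and 18176 in KO. The genotypes did not overlap in M0 and overlapped in M2. In M0 the log2 fold change of KO against WT was 0.85 (SE 0.15, edgeR adjusted p = 0.034), and in M2 it was 0.04 (SE 0.05, adjusted p = 0.86). IL-4 raised Arg1 by 5.53 (SE 0.12, edgeR adjusted p = 1.6e-12) in WT and by 4.71 (SE 0.11, adjusted p = 2.0e-11) in KO. The interaction was −0.81 (SE 0.16), with an unadjusted p of 1.2e-04 and an edgeR adjusted p of 0.095, and the DESeq2 Wald test gave an adjusted p of 0.0015. The higher Arg1 of KO M0 kept its direction in all 6 fits with a single library removed, with log2 fold changes between 0.73 and 1.02. The call was lost without the WT M0 library numbered 3 (edgeR adjusted p = 0.2), the KO M0 library numbered 1 (0.094) or the KO M0 library numbered 3 (0.13).

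Arg2, the mitochondrial arginase, was counted at a far lower level. Its normalized counts were 23, 12.2 and 14.7 in WT M0, 26.2, 19 and 19.8 in KO M0, 48, 43.9 and 46 in WT M2, and 54.4, 57.8 and 44.2 in KO M2. The M2 groups lay above the M0 groups in both genotypes, and the genotypes overlapped in both states. The log2 fold change with IL-4 was 1.50 (SE 0.24, edgeR adjusted p = 1.9e-04) in WT and 1.28 (SE 0.23, adjusted p = 8.4e-04) in KO. KO against WT was 0.40 (SE 0.31, edgeR adjusted p = 0.74) in M0 and 0.19 (SE 0.18, adjusted p = 0.78) in M2.

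Per base of annotated exon, Arg1 made up most of the arginase transcripts in every library. Its share of Arg1 plus Arg2 was 90.08%, 92.80% and 90.63% in WT M0, 91.99%, 93.20% and 94.63% in KO M0, 99.40%, 99.45% and 99.38% in WT M2, and 99.30%, 99.27% and 99.47% in KO M2. Every M2 library lay above every M0 library. The mean share rose from 92.22% ± 1.69 (SD, n = 6) in M0 to 99.38% ± 0.08 (SD, n = 6) in M2, and a two-sided exact permutation test over the 12 libraries gave p = 0.0022, the smallest it can give. Between genotypes the share differed by 2.10 percentage points in M0 (two-sided exact permutation p = 0.2) and by −0.06 in M2 (exact p = 0.4), in tests of 3 against 3 that cannot go below 0.10. The size of these differences depends on the length used. With the canonical transcript length, chosen after seeing the data, they were 1.15 points in M0, −0.03 in M2 and 3.77 between the states, against 7.16 between the states with all annotated exons, and with counts not divided by length they were 1.04, −0.03 and 3.42. The directions and the exact p-values were the same on all 3 scales. Division by fixed lengths keeps the order of the libraries. With every M2 library above every M0 library, the p-value between the states therefore could not change.

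Nos2, the inducible nitric oxide synthase, was close to undetected. It had 3, 2 and 2 counts in WT M0, 3, 0 and 3 in KO M0, 3, 10 and 8 in WT M2, and 7, 7 and 6 in KO M2, and did not pass the filter on low counts. Summed over the 3 libraries of a group and scaled for depth, the ratio of M2 to M0 was 3.15 in WT, with an exact 95% counting interval of 1.29 to 8.78, and 3.83 in KO, with an interval of 1.48 to 11.7. The ratio of KO to WT was 0.795 (interval 0.221 to 2.76) in M0 and 0.965 (0.496 to 1.87) in M2. These intervals cover counting error only and not the spread between cultures. With Nos2 set to no fewer than 3 counts, the log2 ratio of Arg1 to Nos2 per exon length was 7.30 to 7.53 in WT M0, 8.25 to 8.62 in KO M0, 11.30 to 12.90 in WT M2 and 11.56 to 11.86 in KO M2, and was not tested since Nos2 was at or under 3 counts in 7 of the 12 libraries. Those were all the M0 libraries and the WT M2 library at 12.90. The M0 ratios thus only restate the Arg1 counts, not scaled for depth, over a fixed 3.

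Odc1, ornithine decarboxylase, makes putrescine and is the rate-limiting enzyme of polyamine synthesis. Its normalized counts were 97.9, 150 and 95.6 in WT M0, 102, 81.1 and 110 in WT M2, and 86.6, 84.3 and 110 in KO M2. In KO M0 they were 119, 128 and 498. The library numbered 3 of KO M0 stood 4.04 times above the mean of the other KO M0 libraries and 3.33 times above the highest of the other 11 libraries. With all libraries, KO against WT in M0 was 1.12 on the log2 scale (SE 0.47, edgeR adjusted p = 0.44), and it was 0.10 without that library. M2 against M0 in KO was −1.41 (SE 0.46, edgeR adjusted p = 0.032), and −0.42 (SE 0.17, adjusted p = 0.083) without it. The KO call was also lost with the DESeq2 Wald test (adjusted p = 0.11) and without the KO M2 library numbered 1 (edgeR adjusted p = 0.098) or 2 (0.093). In WT cells the change with IL-4 was −0.23 (SE 0.19, edgeR adjusted p = 0.33). Odc1 shares 40.2% of its 50-base stretches with 16 other genes, and the 15 of them in the tables held 6 to 24 counts per library in sum, 8.01% of the counts of Odc1.

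The same KO M0 library held other genes at levels far from the rest, a comparison made after the values were seen. Of the 14084 genes that averaged over 10 normalized counts, 20 stood at least 2 times above every other library there, against 0 to 5 genes in each of the other 11 libraries. Odc1 ranked 7 among them. The genes above it were the immediate-early genes Egr1, Fosb, Fos, Ier2 and Btg2 and the chemokine Cxcl2. Egr1 had 2407 normalized counts there and 26.7 to 221 elsewhere, Fos 8246 against 726 to 1492, and Cxcl2 1568 against 190 to 389. The part of these genes in the Odc1 result was not tested.

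**Figure D2:**
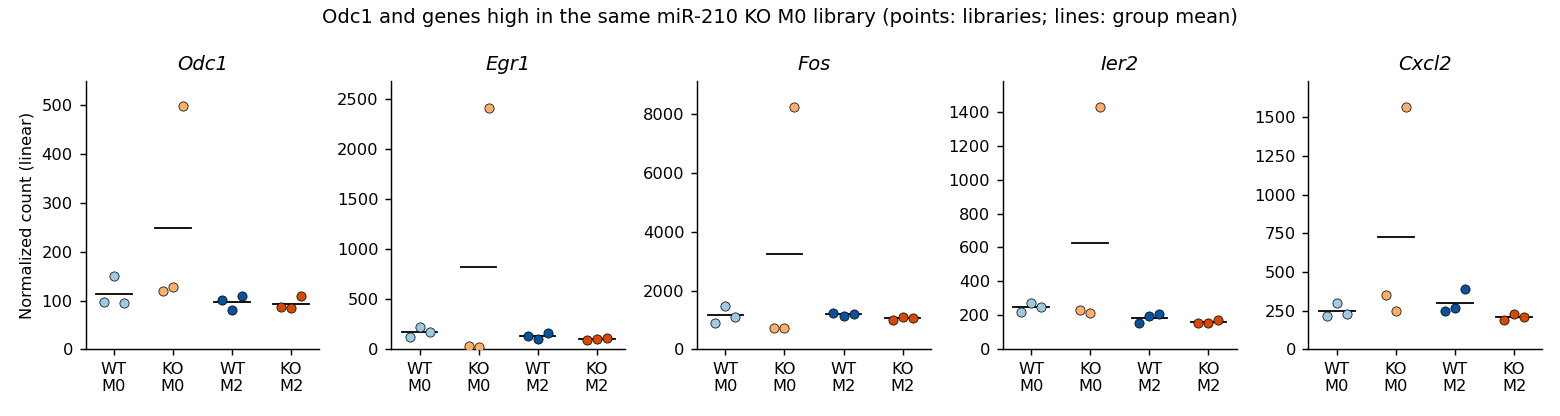
Normalized counts (linear axes from 0) of Odc1, Egr1, Fos, Ier2 and Cxcl2 in the 12 libraries, with points for libraries and lines for group means. In each panel a single miR-210 KO M0 library lies far above the other 11, at 498 for Odc1 and 2407 for Egr1.

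Srm, spermidine synthase, and Sms, spermine synthase, add the aminopropyl groups that turn putrescine into spermidine and spermidine into spermine. Srm had 161, 162 and 186 normalized counts in WT M0, 246, 203 and 199 in KO M0, 247, 250 and 270 in WT M2, and 225, 249 and 215 in KO M2. WT M0 was thus the low group, and the KO libraries of the M0 and M2 states overlapped. Srm rose with IL-4 in WT by 0.59 on the log2 scale (SE 0.10, edgeR adjusted p = 1.9e-04), while in KO the value was 0.09 (SE 0.11, adjusted p = 0.57). The difference of these responses, −0.49 (SE 0.15), had an edgeR adjusted p of 0.28 and was not called by any fit that kept all libraries. KO against WT was 0.35 (SE 0.12, edgeR adjusted p = 0.32) in M0 and −0.14 (SE 0.09, adjusted p = 0.63) in M2.

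Sms had 338, 347 and 333 normalized counts in WT M0, 367, 371 and 341 in KO M0, 435, 414 and 474 in WT M2, and 381, 459 and 466 in KO M2. The M2 libraries lay above the M0 libraries in both genotypes. The log2 fold change with IL-4 was 0.38 (SE 0.08, edgeR adjusted p = 0.0013) in WT and 0.28 (SE 0.10, adjusted p = 0.047) in KO. The KO call held in 1 of 6 fits that left out a library and was lost with the DESeq2 Wald test (adjusted p = 0.073). Between genotypes Sms differed by 0.08 (SE 0.09, edgeR adjusted p = 0.8) in M0 and −0.01 (SE 0.09, adjusted p = 0.98) in M2. Sms shares 28.6% of its stretches with the pseudogene Sms-ps, which had at most 3 counts in a library.

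Azin1, antizyme inhibitor, keeps ornithine decarboxylase from being degraded by binding the antizyme that marks it. It had 1903, 1917 and 2091 normalized counts in WT M0 and 2576, 2069 and 2586 in KO M0. In M2 it had 3306, 3218 and 3349 in WT and 2873, 2983 and 2813 in KO. Every KO M2 library lay below every WT M2 library, and M0 overlapped between genotypes through the KO library at 2069. The log2 fold change with IL-4 was 0.75 (SE 0.06, edgeR adjusted p = 4.2e-07) in WT and 0.26 (SE 0.09, adjusted p = 0.042) in KO, where the value lay just under the limit on the fold change and was not called. Their difference was −0.48 (SE 0.11, unadjusted p = 6.0e-04), with an adjusted p of 0.14 from edgeR and 0.024 from the DESeq2 Wald test. KO against WT was 0.29 (SE 0.10, edgeR adjusted p = 0.31) in M0 and −0.18 (SE 0.05, adjusted p = 0.13) in M2. Azin1 is the gene whose 3′ untranslated region held the 6 letters printed above, and a gene with a 6-letter match is not rare at 9.25% of all.

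Sat1, spermidine/spermine acetyltransferase, starts the breakdown and export of polyamines. It had 4893, 3651 and 4343 normalized counts in WT M0, 4436, 3724 and 4241 in KO M0, 4686, 5143 and 4481 in WT M2, and 5401, 5749 and 4715 in KO M2. In KO the M2 libraries lay above the M0 libraries, and in WT they overlapped. The log2 fold change with IL-4 was 0.36 (SE 0.09, edgeR adjusted p = 0.0094) in KO and 0.16 (SE 0.09, adjusted p = 0.19) in WT, and the interaction of 0.20 (SE 0.14, adjusted p = 0.72) was not called. KO against WT was −0.06 (SE 0.11, edgeR adjusted p = 0.91) in M0 and 0.15 (SE 0.07, adjusted p = 0.45) in M2. The KO call was lost without the KO M2 library numbered 2 (edgeR adjusted p = 0.07).

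**Figure D3:**
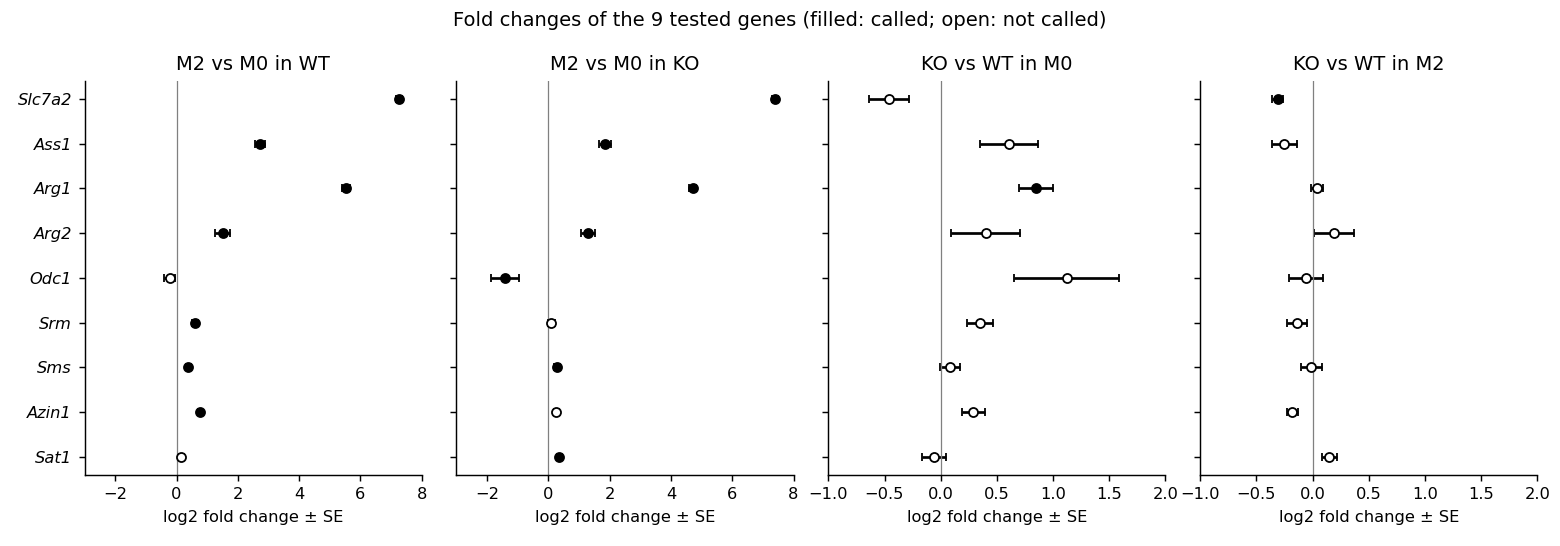
Log2 fold changes with their standard errors (bars) of the 9 tested genes for M2 against M0 in each genotype and miR-210 KO against WT in each state, with filled points for called genes; note the different scale of the left and right pairs of panels. Slc7a2, at 7.26 and 7.39, and Arg1, at 5.53 and 4.71, stand far to the right with IL-4, and only Arg1 in M0 (0.85) and Slc7a2 in M2 (−0.31) are filled between genotypes.

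Over the 9 tested genes, the groups compared did not overlap for 7 genes with IL-4 in WT, where 57.0% of all tested genes did not overlap, and for 8 in KO, where 46.3% did not. Between genotypes this was so for Slc7a2, Ass1, Arg1 and Srm in M0, 4 of 9 genes against 14.4% of all, and for Slc7a2, Ass1 and Azin1 in M2, 3 of 9 against 16.0%. In M0 6 of the 9 genes had an unadjusted p under 0.05, where 10.0% of all genes did. Odc1 was among the 6, with a log2 fold change of 1.12 that was 0.10 without the KO M0 library numbered 3. In M2 4 of the 9 did, where 10.7% did. The interaction was negative for 7 of the 9 genes, with a median of −0.48 on the log2 scale, where the median over all genes tested lay at 0 to 2 decimals and that of the 54 other pathway genes at −0.08 over the 41 tested. Of the 9, 4 had an unadjusted p under 0.05 for the interaction, where 8.95% of all genes did. These were Ass1, Arg1, Srm and Azin1, all among the 6 counted in M0. The interaction compares the KO difference in M2 with that in M0 in the same libraries, so it is not a separate result. The interaction of Odc1 went from −1.18 to −0.17 without the KO M0 library numbered 3. The set was chosen with earlier results of these data known, so these shares are a description and not a test of the set.

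The order of the transcript levels, in CPM per kilobase of annotated exon, differed between states. In WT M0, Sat1 was highest at 170 ± 24.7 (SD, n = 3), followed by Azin1 at 22.7 ± 1.21, Arg1 at 12.8 ± 2.67, Sms at 5.97 ± 0.128, Srm at 4.3 ± 0.353, Odc1 at 2.23 ± 0.595, Arg2 at 1.26 ± 0.431, Slc7a2 at 0.859 ± 0.124, Ass1 at 0.717 ± 0.104 and Nos2 at 0.0593 ± 0.0229. The ranges of the neighbours Arg2 and Slc7a2 overlapped, as did those of Slc7a2 and Ass1. In WT M2, Arg1 led at 589 ± 23.7, followed by Sat1 at 189 ± 13.4 and Slc7a2 at 131 ± 9.28. Among 21667 protein-coding genes, Arg1 ranked 2830 in WT M0, 1590 in KO M0, 26 in WT M2 and 24 in KO M2, and Slc7a2 ranked 9866, 10221, 210 and 262 in the same order. Sat1 ranked between 103 and 132 in every group. The scale depends on the length used. With the length of the canonical transcript in place of all annotated exons, Arg1 came to 1168 in WT M2 and Slc7a2 to 168, while Sat1 came to 450, and in WT M0 Ass1 (1.52) then lay above Arg2 (1.26) and Slc7a2 (1.1), and Srm above Sms.

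**Figure D4:**
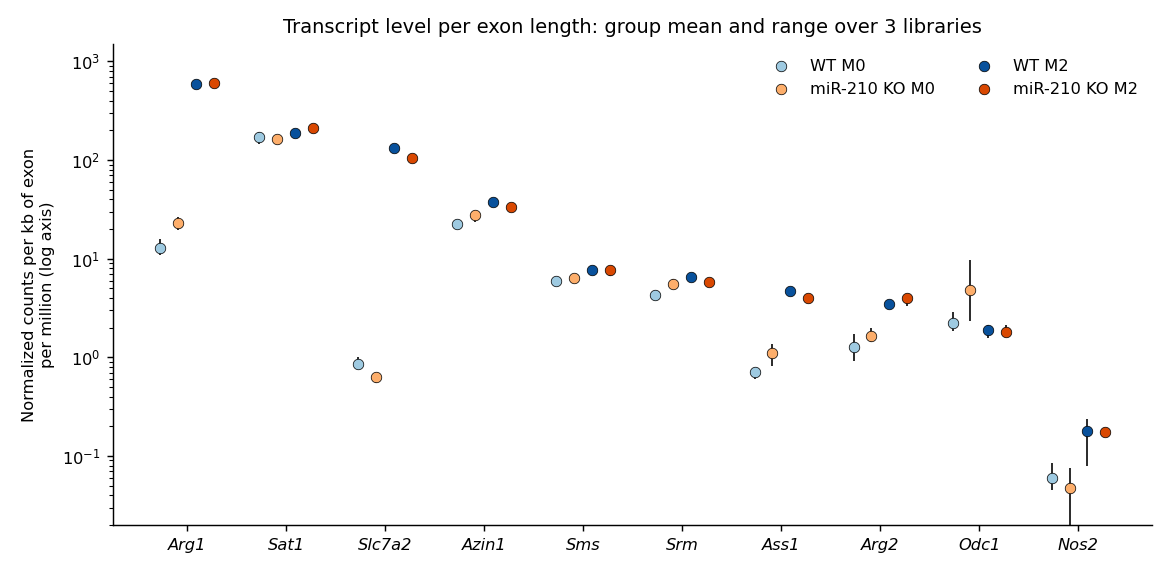
Level of each gene in CPM per kilobase of exon on a log axis, ordered by the level in WT M2, with points for the group mean and bars for the range over the 3 libraries of a group (a bar that reaches the foot of the plot includes a library at 0). Arg1 and Slc7a2 span the widest range between M0 and M2, and the group means of Sat1 lie between 164 and 210.

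The other genes of the pathway were taken from a list of 54, of which 41 were tested with IL-4. In WT 17 were called higher, 9 lower and 15 not called, where 35.4% of all tested genes were called and 18.4% were called higher, and the median log2 fold change of the list was 0.14. In KO 13 were called higher, 8 lower and 20 not called, where 28.4% of all tested genes were called, 14.3% higher and 14.0% lower, and the median of the list was 0.09. The medians over all tested genes lay at 0 and −0.01. The urea cycle genes Cps1, Otc and Nags, and Agmat, had 0 counts in all 12 libraries.

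The 4 largest called increases in WT were those of Azin2, Slc7a1, Prodh and Eif5a. Azin2, a relative of Azin1 that also binds antizyme, rose by 1.79 on the log2 scale (SE 0.11) in WT and 1.78 (SE 0.12) in KO, from 91 to 119 normalized counts in WT M0 to 349 to 382 in WT M2. Slc7a1, the widely expressed transporter CAT1, rose by 1.13 (SE 0.14) in WT and 0.44 (SE 0.15) in KO. Prodh, proline dehydrogenase, rose by 1.13 (SE 0.17) and 0.81 (SE 0.19), and Eif5a, the factor that carries hypusine, by 0.81 (SE 0.07) and 0.62 (SE 0.08). All 8 of these increases passed the test, with edgeR adjusted p-values up to 0.042, that of Slc7a1 in KO.

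The 4 largest called decreases in WT were those of Slc7a7, Paox, Ddah2 and Adi1. Slc7a7, part of an exchanger that exports cationic amino acids, fell by 1.66 on the log2 scale (SE 0.11) in WT and by 1.22 (SE 0.11) in KO. Paox, which oxidizes acetylated polyamines, fell by 1.30 (SE 0.10) and 1.16 (SE 0.10), and Ddah2, a relative of the enzyme that breaks down asymmetric dimethylarginine, fell by 1.17 (SE 0.15) and 1.35 (SE 0.15). Adi1, an enzyme of methionine salvage, fell by 1.01 (SE 0.13) in WT, and in KO the value was −0.23 (SE 0.14, edgeR adjusted p = 0.23). The edgeR adjusted p-values of the 7 decreases that passed were at most 3.0e-05.

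**Figure D5:**
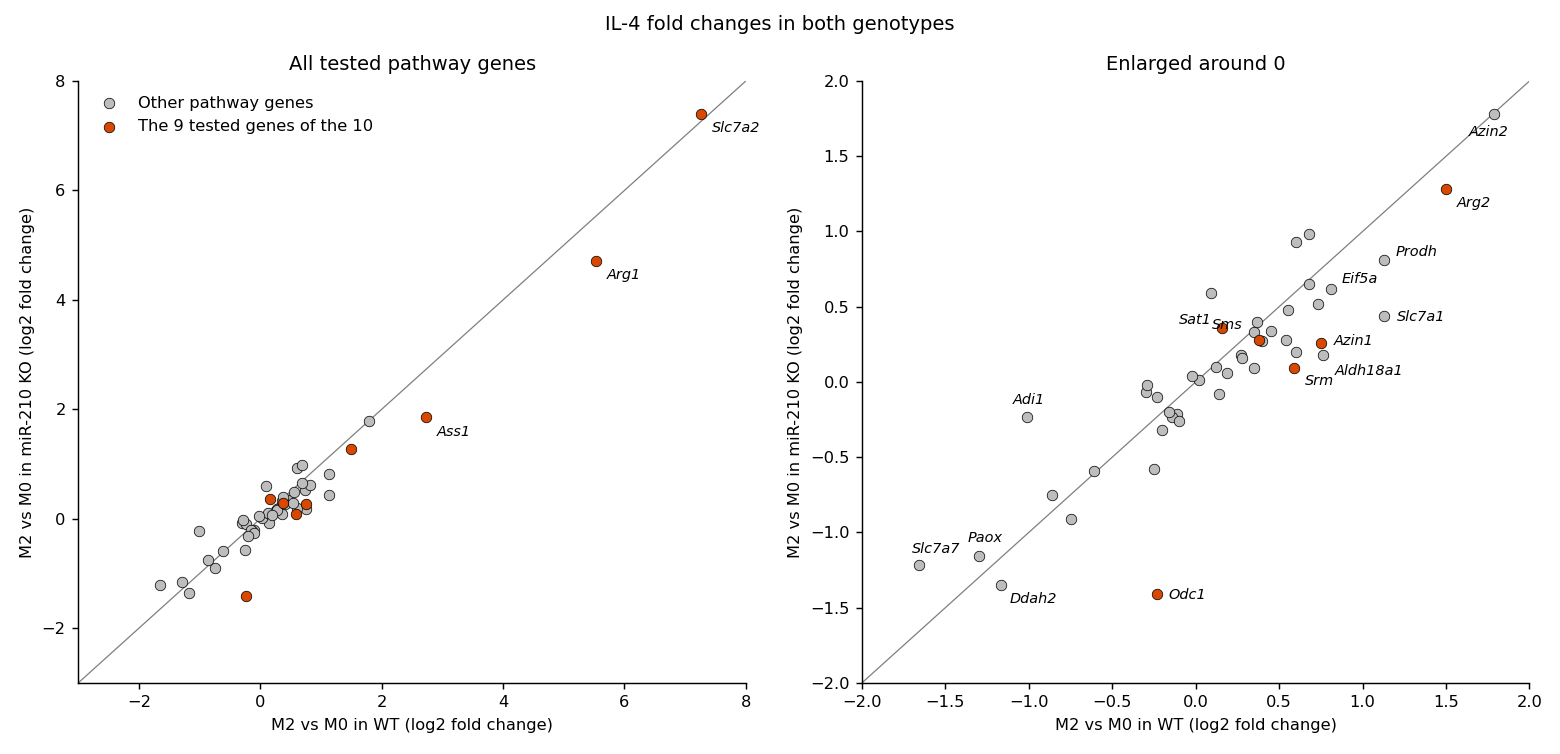
Log2 fold change of M2 against M0 in WT (x axis) and miR-210 KO (y axis) for the tested genes of the arginine and polyamine pathway, with the line of equal change; the right panel enlarges the region around 0. Slc7a2 lies near the line at 7.26 and 7.39, Arg1 and Ass1 lie below it, and Odc1 lies furthest below among the genes near 0, at −0.23 and −1.41.

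Between genotypes, 0 of the 42 listed genes tested were called in M0, where 0.461% of all genes were, and 1 of 41 was called in M2, where 0.980% of all genes were. That gene was Aldh18a1, which makes the precursor of proline and ornithine from glutamate. Its normalized counts were 232, 245 and 294 in WT M2 and 175, 180 and 191 in KO M2, with no overlap, and 114, 180 and 159 in WT M0 against 172, 143 and 168 in KO M0, with overlap. The log2 fold change of KO against WT was −0.49 (SE 0.10, edgeR adjusted p = 0.033) in M2 and 0.08 (SE 0.16, adjusted p = 0.91) in M0, and the interaction was −0.58 (SE 0.20, adjusted p = 0.34). IL-4 raised Aldh18a1 by 0.76 (SE 0.15, edgeR adjusted p = 7.5e-04) in WT, and in KO the value was 0.18 (SE 0.12, adjusted p = 0.28). None of the 54 listed genes held the 7-letter miR-210 match in its canonical 3′ untranslated region, and Aldh18a1 and Eif5a2 held the 6-letter match.

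The genes whose pattern over the 12 libraries was nearest were found by the distance between log2 levels centred per gene, among 14084 genes. For Slc7a2 they were Msx3 (distance 1.00), Il31ra (1.05) and Scn3a (1.25). For Arg1 they were Hbegf (0.94), 0610040F04Rik (0.96) and Cavin1 (1.05). For Arg2 they were S100a6 (0.55), Cebpa (0.55) and Gm45091 (0.58). For Odc1 they were B130021K23Rik (0.93), Gm4468 (0.95) and the immediate-early gene Ier2 (0.95), each of which was high in the same KO M0 library. The distance is the root of the summed squared differences over the 12 libraries, in log2 units, and says nothing of shared function or control.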

How the data were processed

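The authors trimmed reads with Trimmomatic, removed duplicate reads with Picard, aligned to GRCm39 with STAR and counted per gene and strand with featureCounts, and deposited raw counts of 56941 genes in 4 tables, a table for each pair of groups. They also deposited 4 tables of a signal, which is the same counts scaled by library size factors, used here only as an alternative. Removal of duplicates can lower the counts of abundant genes such as Arg1, and reads shared with pseudogenes may be lost. Libraries were assigned to groups by column names, and their numbers are not tied to samples. Annotation matched 56323 gene identifiers and left 618 unmatched.

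Counts were tested in R 4.3.3 by the edgeR 4.0.16 quasi-likelihood test with TMM scaling and the filterByExpr filter, using the 6 libraries compared or, for the interaction, all 12, with Benjamini-Hochberg adjustment over all tested genes. Calls needed a log2 fold change beyond 0.263 in either direction and an adjusted p under 0.05. Calls between M2 and M0 also needed a protein-coding gene that averaged more than 10 normalized counts, and the interaction had no fold limit. The standard error is the size of the log2 fold change divided by the square root of F. Shares were compared by exact permutation tests (Python 3.11.15). The depth, 7930525 to 10167695 counts per library, limits Nos2 and Arg2 most.

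Tested on simulated counts, with a log2 change of 1 put into 200 genes, edgeR recovered 97.5% of these for miR-210 KO against WT in M0 over 14134 genes, with 3.47% of its calls false, and 90.5% for the interaction over 14702 genes. The 200 genes were drawn from well-counted genes only, and all other genes had no difference between groups. Recovery of smaller changes, or of genes with few counts such as Arg2, was not measured. The alternatives were DESeq2 1.42.0, its size factors in edgeR, no filter on low counts, other fold limits, all 12 libraries fitted together, a block for the column number, and single libraries left out; the canonical transcript length was added after seeing the data. The members and lists were chosen with earlier results of these data known. Named genes are the 10 members, Mir210, the pathway genes called between genotypes, the 4 largest increases and 4 largest decreases with IL-4 in WT among called pathway genes, and the 3 nearest patterns of each of Slc7a2, Arg1, Arg2 and Odc1. Pairs of libraries within a group differed by 1.89 to 9.85 times counting noise (chi-square per degree of freedom), so none was counted as a repeat.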

Additional observations from a re-analysis of the deposited data

How the results depend on the processing

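Of 216 member fold changes under alternatives that kept all libraries, 203 kept their direction and call, 5 lost a call, 8 gained one and 0 reversed. Of 324 with 1 library left out, 296 kept both, 15 lost a call, 5 gained one and 8 reversed; none of those 8 was a called value. The reversed values were those of Sat1 in M0 (0.05 without the WT M0 library numbered 1 and 0.02 without the KO M0 library numbered 2), Odc1 in M2 (0.03 and 0.02 without the WT M2 library numbered 3 or the KO M2 library numbered 2), Sms in M2 (0.04 and 0.08 without WT M2 numbered 3 or KO M2 numbered 1), Odc1 with IL-4 in WT (0.01 without WT M0 numbered 2) and the interaction of Slc7a2 (−0.00 without WT M0 numbered 2). Over all fits with a library left out, these ranged from −0.15 to 0.05, −0.19 to 0.03, −0.06 to 0.08, −0.36 to 0.01 and −0.00 to 0.22 in the same order. The cause was not tested.

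Of the 10 genes, with a log2 limit of 1 the count called was 0 in M0, 0 in M2, 4 with IL-4 in WT and 5 with IL-4 in KO. Over the whole table this limit called 27 of 14089, 40 of 13980, 1446 of 14266 and 1292 of 14331 genes, in the same order. With no filter on low counts, the count of members called was 2 in M0 (Arg1 and Odc1) and 3 for the interaction. With the DESeq2 Wald test it was 2 for the interaction. The SE of Odc1 in M0 was 0.14 without the filter and 0.47 with it, while its KO M0 libraries stood at 119, 128 and 498. With all 12 libraries in the fit, the count of members called was 0 in M2. With 1 library left out it ranged from 0 to 1 in M0, 0 to 1 in M2, 4 to 7 with IL-4 in KO and 0 to 2 for the interaction, and stayed at 7 with IL-4 in WT. Genes called over the whole table in M0 numbered 65, and 218 with the DESeq2 Wald test, 532 with no filter, 248 in the fit of all libraries and 20 to 302 with a library left out. In M2 they numbered 137, and 360, 60 and 53 to 215 under the last 3 of these. For the interaction they numbered 0, and 92 with DESeq2, 341 with no filter and 0 to 77 with a library left out. With a library left out, 4644 to 5023 genes were called with IL-4 in WT and 3387 to 4117 in KO.

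With the library number as a replicate block, the members called were 1 in M0, 1 in M2, 7 with IL-4 in WT, 6 in KO (Sms lost, log2 fold change 0.27, edgeR adjusted p = 0.085) and 0 for the interaction. The genes called were 284 in M0 and 289 in M2, against 65 and 137 without the block. With IL-4 the block gave 4934 genes in WT and 3757 in KO, and it gave 0 for the interaction. The numbers share no stated source. Deviations of same-numbered libraries correlated between −0.45 and 0.48. Between WT and KO in M0 they were 0.15, 0.48 and 0.05 for numbers 1, 2 and 3. The highest correlations with another number were 0.10, −0.12 and 0.37 there. What the numbers stand for cannot be told, so the pairing is not taken as one of the design.

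The arginase share kept its direction and side of the threshold in M0, in M2 and between states with counts not divided by length (differences of 1.04, −0.03 and 3.42 percentage points), with the deposited normalized counts, and with the canonical transcript length. A library size factor cancels in this share, so the deposited normalized counts could not change it. Fixed lengths keep the order of the libraries, so the test between the states could not change either. Within a state, tests of 3 against 3 cannot go below 0.10, so their side of the threshold was fixed in advance.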
